A study of Mus musculus with 2 samples.

Results

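The NRF2 antioxidant response was read as 10 genes, chosen by symbol: Nfe2l2 and Keap1, which encode the transcription factor NRF2 and its inhibitor, and the target genes Hmox1, Nqo1, Gclc, Gclm, Txnrd1, Srxn1, Prdx1 and Slc7a11. All 10 were found among the 53801 genes counted in each library. RNA-seq was analysed for the 2 sham libraries of a mouse stroke study, each from the sorted microglia of 1 male Cx3cr1(CreER/wt) mouse on a C57BL/6 background. These mice carry a tamoxifen-inducible Cre recombinase inserted in a Cx3cr1 allele, so the gene of the fractalkine receptor is present in a single intact copy. Both mice received tamoxifen at 75 mg/kg daily for 4 days, were operated 14 days after the first injection at 8 to 10 weeks of age, and were killed 3 days after sham surgery. The paper's methods give an older age range and both sexes. Cells from the left hemisphere were gated as CD11c-Ly6G-CD11b+CD45low. The libraries of the stroke arm were not analysed here, so no comparison between conditions was made and no p-value is given.

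NRF2 is made continuously and, in resting cells, is held in the cytoplasm by KEAP1, an adaptor of a CUL3 ubiquitin ligase that sends NRF2 to the proteasome. Oxidants and electrophiles modify cysteines of KEAP1, newly made NRF2 then escapes, pairs with a small MAF protein in the nucleus and binds antioxidant response elements beside genes of glutathione synthesis, thioredoxin reduction, haem breakdown and quinone reduction. Because this control acts largely on the protein, the amount of Nfe2l2 mRNA does not by itself give the activity of the pathway. In brain macrophages the response is known for its part in limiting oxidative damage and in the handling of iron and haem.

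The core letters of an antioxidant response element are TGACNNNGC, and a related form is TGAGNNNGC. Both were searched on both strands of the RefSeq promoters (GRCm38.p6, 250 bases before to 50 after each start), which were given for 8 of the 10 genes. Hmox1 and Gclc had no entry. The first form was present for 5 of the 8 genes and either form for 6, against 12.4% and 27.8% of all 32851 promoters. Txnrd1 has 3 promoters and the other 7 genes 1 each, and these shares describe the letters in this window. The matches that lie wholly upstream are shown so that the elements of the members can be compared, each on the strand of the match with the element in capitals and 8 flanking bases on each side.
Prdx1, chr4:116685466-116685474, 133 bases before the start: acgggggaTGACTCAGCgctttccc
Nfe2l2, chr2:75704895-75704903, 240 bases before the start: agcccaccTGACTCCGCcatgcccc
Gclm, chr3:122245423-122245431, 134 bases before the start: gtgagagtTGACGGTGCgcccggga
Txnrd1, chr10:82859114-82859122, 92 bases before the start: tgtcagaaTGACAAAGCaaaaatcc
Srxn1, chr2:152105479-152105487, 45 bases before the start: attcacccTGAGTCAGCggccgggc
Srxn1, chr2:152105366-152105374, 158 bases before the start: agagaggaTGAGTCGGCtctcagta
Slc7a11, chr3:50443702-50443710, 97 bases before the start: ctccagctTGAGAAAGCgccaacat
Distances are those of the base farthest from the RefSeq start. The bases after this start were found in a GENCODE M21 transcript of the gene for each promoter but that of Nfe2l2. The elements of Prdx1 and of Srxn1 at 45 bases overlap TGACTCA, the letters bound by AP-1 factors such as FOS and JUN, which 5.2% of all promoters hold. The match of Txnrd1 lies in the second of its 3 promoters, and Keap1 and Nqo1 held neither form in this window.

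The libraries held 23381026 and 41142609 counts on genes, and levels are given as counts scaled to a library sum of 1000000 (CPM). At least 10 counts in both libraries were found for 13445 genes, 25.0% of all, and for all 10 members. The median log2 ratio of library 2 over library 1 over these genes was −0.26 on the CPM scale, and −0.01 after TMM normalization. TMM scales each library as a whole and assumes that most genes do not differ. By CPM, 5.74% of the counted genes were more than 2-fold higher in library 2, 25.9% were more than 2-fold lower and 31.7% passed in either direction. With TMM the numbers were 1193 higher and 2606 lower in place of 772 and 3485. Longer transcripts were lower in library 2. In the longest 10th of the counted genes 52.6% were more than 2-fold lower, against 12.9% in the shortest. Library 2 also held more counts on neutrophil genes, although the gate leaves out Ly6G+ cells. All 10 genes of an immature neutrophil list, from Ngp to Cebpe, were more than 2-fold higher there, with 2112 CPM in library 1 and 34088 CPM in library 2 in sum. Of 9 mature neutrophil genes 8 were higher (3545 and 32025 CPM), and no gene of the 2 lists was at 0. All 10 microglia markers were counted, with 5.12% and 4.72% of the counts, and none was at 0, so the markers of the labelled cell type were present in both libraries. Each library is 1 mouse, and ratios between them describe these 2 libraries. Intervals of levels and ratios are 95% exact intervals that cover counting error only, since amplified reads are not independent molecules. In sorted bulk RNA, fewer cells of a type and less RNA per cell cannot be told apart.

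The regulators were led by NRF2 itself. Nfe2l2 (chromosome 2, 75675513 to 75704641, minus strand, protein coding, ENSMUSG00000015839) was read by 7250 counts in library 1 against 17183 in the deeper library 2, which is 310.1 CPM (303 to 317) and 418 CPM (411 to 424). Its mean of 364 ± 76.1 CPM (SD, n = 2 libraries) exceeded that of 97.3% of the counted genes. Library 2 was the higher, with a log2 ratio of 0.43 (0.39 to 0.47), within 2-fold. Keap1 (chromosome 9, 21229730 to 21239361, minus strand, ENSMUSG00000003308) went the other way, with 1533 and 1768 counts, or 65.6 and 43.0 CPM and a log2 ratio of −0.61 (−0.71 to −0.51). Its longest transcript has a GC content of 58.0%, in the top 10th of counted genes, where the median log2 ratio was −0.64. Adjusted for GC content and length, by subtracting the median of genes alike in both, the ratio of Keap1 was 0.54, so its direction turned. The antisense gene Gm16754 overlaps 510 of the 4693 exon bases of Keap1 and had 1 and 3 counts.

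Levels of different genes were compared per kilobase of annotated exon, scaled to a sum of 1000000 in each library (TPM scale). On this scale Nfe2l2 mRNA was 5.85 times (5.53 to 6.18) Keap1 mRNA in library 1 and 12.02 times (11.4 to 12.6) in library 2. The message of the factor exceeded that of its inhibitor in both mice. The ratio of the pair was 2.06-fold higher in library 2, but after adjustment for GC content and length it was 1.23-fold lower there, so the direction of this difference between the mice is not settled.

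The gene list was ordered by its levels per exon length. Prdx1 was the highest (287 and 261 in libraries 1 and 2, TPM scale), followed by Nfe2l2 (232 and 252), Hmox1 (143 and 88.9), Gclc (65.8 and 5.71) and Keap1 (39.7 and 20.98). Txnrd1 (20.3 and 5.91), Gclm (12.8 and 3.19), Srxn1 (9.79 and 5.91), Nqo1 (0.940 and 4.12) and Slc7a11 (1.28 and 1.73) were lower. The values of the libraries overlapped between the neighbours Gclc and Keap1, Txnrd1 and Gclm, Gclm and Srxn1, and Nqo1 and Slc7a11, so the order within these pairs was not separable from the spread. The values of Prdx1 and Nfe2l2 did not overlap per exon length, but with the length of the longest transcript in place of the exon union Nfe2l2 was the higher by mean and they did. The 3 most abundant genes kept ranks 1 to 3 in each library, while Gclc was 4th in library 1 and 7th in library 2.

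**Figure D1:**
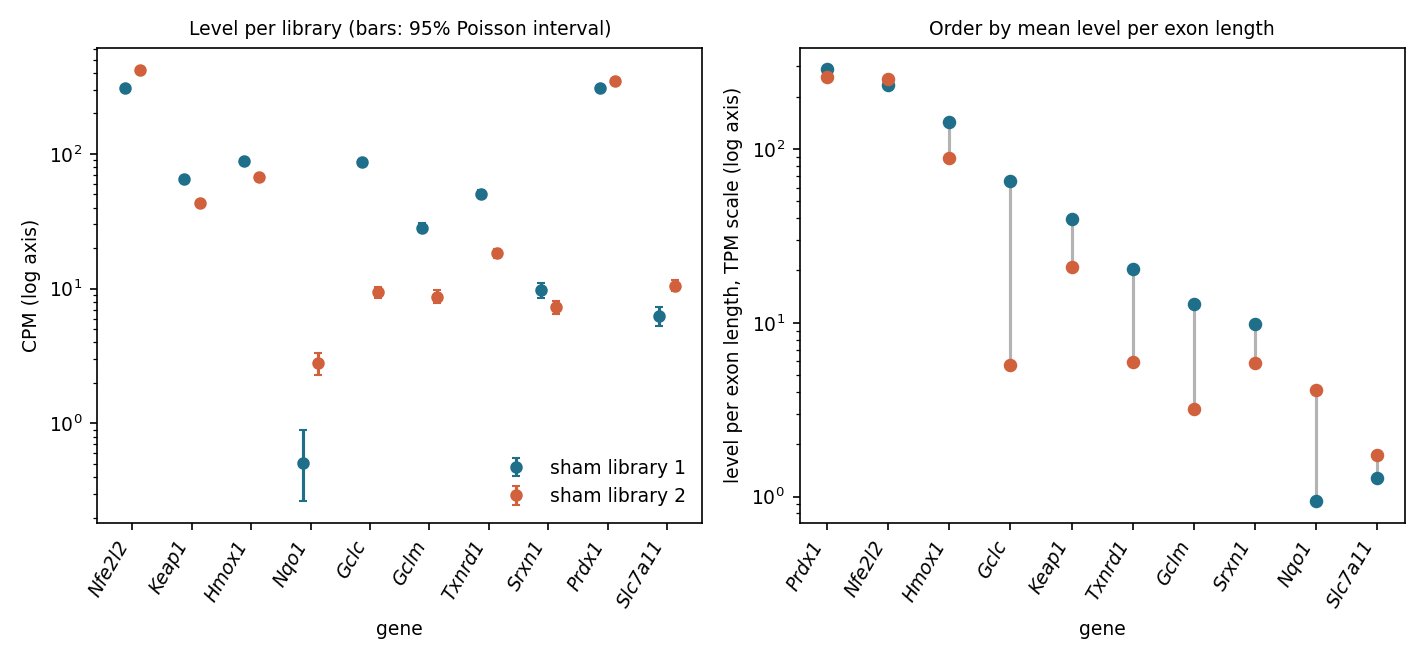
Levels of the 10 NRF2 genes in sham library 1 (blue) and sham library 2 (orange). Left, CPM on a log axis with 95% exact Poisson intervals for counting error. Right, level per exon length (TPM scale, log axis) with genes in order of their mean, each grey line joining the libraries. Gclc spans the widest range of the 10 per exon length, from 65.8 to 5.71, and Nfe2l2 and Prdx1 the narrowest.

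Peroxide reduction was represented by Prdx1 and Srxn1. Prdx1 encodes peroxiredoxin 1, a thiol peroxidase, and Srxn1 encodes sulfiredoxin, which repairs peroxiredoxins after overoxidation. Prdx1 (chromosome 4, 116685544 to 116700822, plus strand, ENSMUSG00000028691) had 7186 and 14273 counts, or 307 CPM (300.3 to 315) and 347 CPM (341 to 353), with a mean of 327 ± 28.0 CPM (SD, n = 2). Its log2 ratio of 0.17 (0.13 to 0.22) was the smallest of the 10 in size by CPM, and after adjustment for GC content and length it was −0.15. With TMM it was 0.43, larger in size than those of Hmox1 (−0.12) and Srxn1 (−0.16). The processed pseudogenes Gm7204 and Gm21399 match 597 bases of Prdx1 at 97.5% and 98.3% identity, and had 8 and 24 counts and 12 and 25 counts. Reads that fit both Prdx1 and a copy may have been left out of the counts of either, which was not tested. Srxn1 (chromosome 2, 152105516 to 152111376, plus strand, ENSMUSG00000032802) had 227 and 299 counts, or 9.71 CPM (8.49 to 11.1) and 7.27 CPM (6.47 to 8.14). Its log2 ratio was −0.42 (−0.67 to −0.16), within 2-fold. Per exon length Prdx1 was 29.3 times (25.7 to 33.6) Srxn1 in library 1 and 44.2 times (39.4 to 49.8) in library 2.

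Hmox1 and Nqo1, a pair often used as readouts of NRF2, stood far apart in level. Hmox1, which encodes the inducible haem oxygenase that opens the haem ring and frees iron (chromosome 8, 75093621 to 75100589, plus strand, ENSMUSG00000005413), had 2059 and 2795 counts. These gave 88.1 CPM (84.3 to 92.0) in library 1 and 67.9 CPM (65.4 to 70.5) in library 2, a mean of 78.0 ± 14.2 CPM (SD, n = 2) and a log2 ratio of −0.37 (−0.46 to −0.29). Its mean exceeded that of 83.3% of the counted genes. With TMM the log2 ratio of Hmox1 was −0.12, and after adjustment for GC content and length it was −0.63. Of 8 markers of border macrophages, which also express Hmox1, 6 were lower in library 2 by CPM, as was the median of all counted genes. More than 2-fold lower were 3 of the 8, where 25.9% of all counted genes were. The markers had 711 and 340.4 CPM in sum, with no gene at 0. Their median log2 ratio was −0.36, beside −0.26 over all counted genes. The part of border macrophages in the level of Hmox1 was not tested.

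Nqo1, which encodes a quinone reductase (chromosome 8, 107388225 to 107403206, minus strand, ENSMUSG00000003849), had 12 counts in library 1 and 115 in library 2. Its levels were 0.513 CPM (0.265 to 0.897) and 2.80 CPM (2.31 to 3.36), where a count of 0 allows 0.128 and 0.0729 CPM. Nqo1 was the only member more than 2-fold higher in library 2, by 5.45-fold, with a log2 ratio of 2.45 (1.59 to 3.44). The mean of 1.65 ± 1.61 CPM (SD, n = 2) was exceeded by most counted genes, as only 16.7% were lower. Neutrophil and choroid plexus genes were also higher in library 2 (44.6 and 584 CPM for 6 choroid plexus genes, 4 of 5 counted genes more than 2-fold higher), and their part in the count of Nqo1 was not tested.

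Gclc had the widest difference of the 10 genes between the mice. The enzyme that joins glutamate and cysteine is a dimer of a catalytic subunit, encoded by Gclc, and a modifier subunit, encoded by Gclm. Gclc (chromosome 9, 77754535 to 77794485, plus strand, ENSMUSG00000032350) had 2037 counts in library 1 but 386 in library 2, or 87.1 CPM (83.4 to 91.0) and 9.38 CPM (8.47 to 10.4). It was 9.29-fold lower in library 2, with a log2 ratio of −3.22 (−3.38 to −3.06), and its mean of 48.3 CPM had an SD of 55.0 (n = 2), larger than the mean. Gclm (chromosome 3, 122245557 to 122270732, plus strand, ENSMUSG00000028124) had 663 and 360 counts, or 28.4 CPM (26.2 to 30.6) and 8.75 CPM (7.87 to 9.70). It was 3.24-fold lower, with a log2 ratio of −1.70 (−1.89 to −1.51). Both subunits were therefore lower in the same library, Gclc by more than Gclm. Per exon length Gclc was 5.13 times (4.70 to 5.61) Gclm in library 1 and 1.79 times (1.55 to 2.07) in library 2, a 2.87-fold difference that no scaling of the libraries can change. Gss, which encodes the next enzyme of glutathione synthesis and was named after its value was seen, did not share this difference, with 18.3 and 18.8 CPM and a log2 ratio of 0.04 (−0.13 to 0.22). The antisense transcript Gm17494, which overlaps 296 of the 6291 exon bases of Gclm, had 14 and 15 counts.

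Slc7a11 encodes xCT, the light chain of the exchanger that brings in cystine for glutathione, and pairs with the heavy chain encoded by Slc3a2. It had 146 and 433 counts (chromosome 3, 49892526 to 50443614, minus strand, ENSMUSG00000027737), or 6.24 CPM (5.27 to 7.34) and 10.5 CPM (9.56 to 11.6). The log2 ratio was 0.75 (0.48 to 1.03), within 2-fold, and became 1.01 with TMM, just past it. Its annotated span is 551089 bases, and its longest transcript holds 373 to 375 bases that are 95.2% to 96.5% identical to 8 other counted genes, the tubulins Tuba1a, Tuba1b and Tuba1c and 5 processed pseudogenes. Log2 ratios were 0.20 for Tuba1b, 0.40 for Tuba1a and 0.68 for Tuba1c, each below that of Slc7a11. Those of the 5 pseudogenes, which had fewer counts, ran from 0.25 to 0.80. Tuba1a alone had 4759 and 11021 counts, so the level of Slc7a11 is uncertain, and the part of tubulin reads in it was not tested. Slc3a2, the partner chain, had 607 and 765 CPM, a log2 ratio of 0.33 (0.31 to 0.36).

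Txnrd1, which encodes the cytosolic thioredoxin reductase that passes electrons from NADPH to thioredoxin (chromosome 10, 82833951 to 82897712, plus strand, ENSMUSG00000020250), had 1185 and 752 counts. These gave 50.7 CPM (47.8 to 53.7) and 18.3 CPM (17.0 to 19.6), 2.77-fold lower in library 2, with a log2 ratio of −1.47 (−1.61 to −1.34). Its substrate gene Txn1 went the other way, with 59.5 and 145 CPM and a log2 ratio of 1.28 (1.20 to 1.36). Per exon length Txnrd1 was 0.126 times Txn1 in library 1 and 0.0188 times in library 2.

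Of the 10 members, 3 were more than 2-fold lower in library 2 (Gclc, Gclm and Txnrd1), where 25.9% of all counted genes were, and 1 was more than 2-fold higher (Nqo1), where 5.74% of all counted genes were. In either direction that is 4 of 10, beside 31.7% of all counted genes, so the count of members is close to the share of all genes. With TMM the split was 3 lower and 2 higher, since Slc7a11 passed 2-fold. Of the 13445 counted genes 2606 were lower and 1193 higher with TMM. Their median log2 ratio was −0.40, beside −0.26 over all counted genes, and their levels summed to 954 CPM in the first mouse against 932 CPM in the second. Nfe2l2 and Prdx1 held most of that sum in both libraries. Relative to the median of all genes, Gclc was at −2.95, Gclm at −1.43, Txnrd1 at −1.21 and Nqo1 at 2.71 on the log2 scale.

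**Figure D2:**
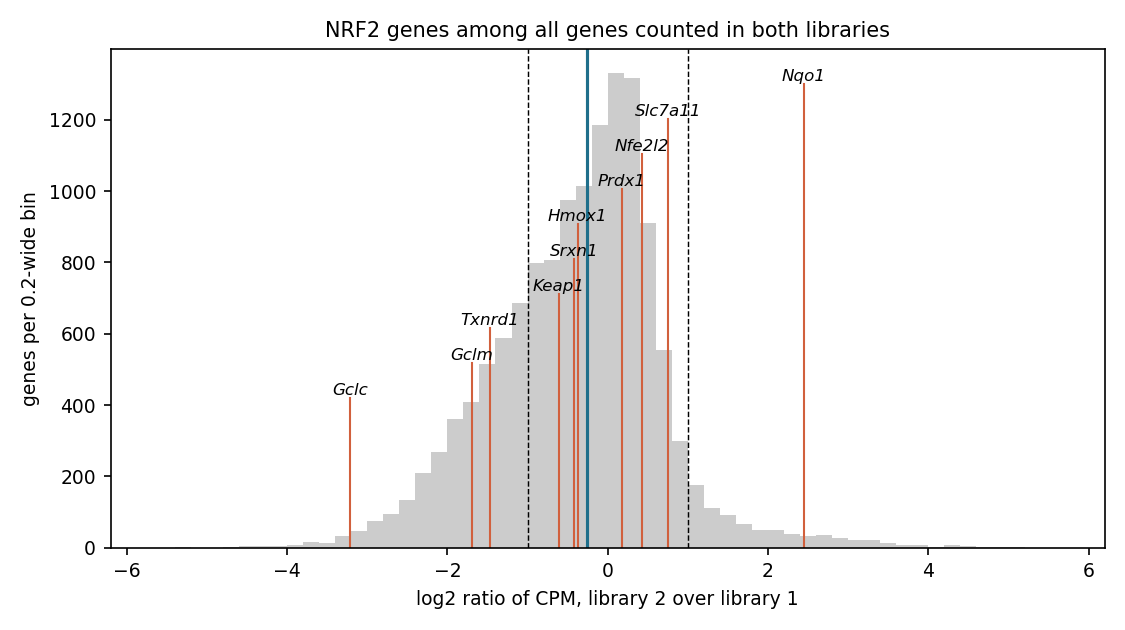
Histogram of the log2 ratio of CPM, library 2 over library 1, for the 13445 genes counted in both libraries (grey, genes per bin), with each NRF2 gene as an orange line whose height has no meaning. The blue line is the median of all genes (−0.26) and dashed lines mark 2-fold, so that Gclc, Gclm and Txnrd1 lie left of the band and Nqo1 right of it.

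Transcript length moved with the ratio, and the members differ in length. The median log2 ratio over all genes was 0.15 for longest transcripts of 1057 to 1656 bases, the range of Hmox1 and Nqo1. It was −0.29 at 3107 to 3629 bases, the range of Keap1, Gclc and Txnrd1, and −0.96 at 4971 to 6440 bases, the range of Gclm. After adjustment for GC content and length the log2 ratio was −2.91 for Gclc, −1.17 for Gclm, −1.19 for Txnrd1 and 2.33 for Nqo1, so these 4 stayed past 2-fold in the same direction. Slc7a11 moved to 1.30, past 2-fold, where genes alike in GC content and length had a median of −0.55. With this adjustment 12.7% of all genes were more than 2-fold lower and 9.7% more than 2-fold higher, 22.4% in all, against 3 and 2 of the 10 members.

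**Figure D3:**
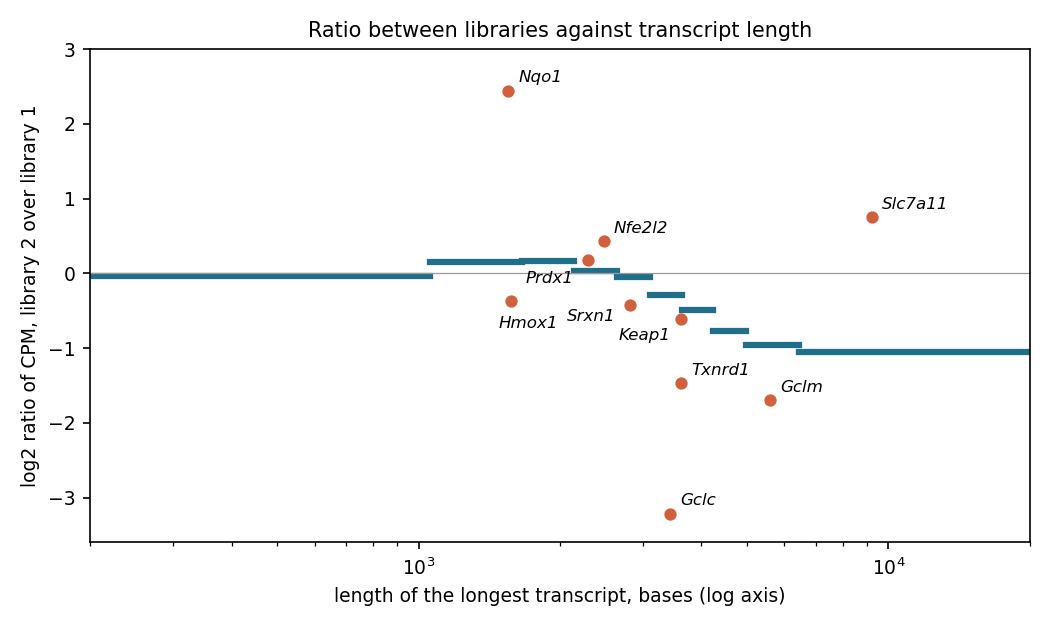
Log2 ratio of CPM, library 2 over library 1, against the length of the longest transcript (log axis). Blue bars are medians of all counted genes in 10 length bins, the first and last of which run past the axis, and orange points are the NRF2 genes. The highest bar is at 0.17 (1657 to 2143 bases) and the lowest at −1.05 (the longest genes), and Gclc at −3.22 lies below and Nqo1 at 2.45 above the bars at their lengths.

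The other genes of the pathway were taken from 7 lists of 62 genes in all, of which 60 were counted in both libraries. Of these, 7 were more than 2-fold higher and 7 more than 2-fold lower in library 2, with a median log2 ratio of 0.17, beside 5.74% higher, 25.9% lower and a median of −0.26 over all counted genes. With TMM the split was 11 higher and 6 lower, where 1193 and 2606 of the 13445 counted genes passed. After adjustment for GC content and length it was 9 and 3, where 9.7% and 12.7% of all genes passed. No list was tested. The higher genes were Nfe2, Mgst1, Glrx, Prdx5, Prdx6, Txn1 and G6pdx, and the lower ones Nfe2l1, Gsk3a, Syvn1, Fbxw11, Gsk3b, Abcc1 and Sesn2. Gsk3b and Txn1 are named because they complete these counts, after their values were seen.

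The partners and relatives of NRF2 held a pair of genes that moved apart. Among the small MAF genes, whose products pair with NRF2 on DNA, Mafg had 92.7 and 75.6 CPM, Mafk 43.4 and 41.1 CPM, and Maff 1.67 and 0.924 CPM. Bach1, which encodes a haem-binding repressor that competes for the same elements, had exactly 1645 counts in each library, or 70.4 and 39.98 CPM (log2 ratio −0.82). Bach2, its relative, had 21.1 and 16.9 CPM. All of these were within 2-fold by CPM, and Mafg alone passed it after adjustment for GC content and length (1.25). Nfe2l1, the relative of NRF2 that drives proteasome genes, was 5.74-fold lower in library 2 (104 and 18.1 CPM, log2 ratio −2.52, −0.98 after adjustment for GC content and length, no longer past 2-fold). Nfe2, the relative best known from megakaryocytes and other myeloid cells, was 8.58-fold higher (15.7 and 135 CPM, log2 ratio 3.10, 2.92 adjusted). Per exon length Nfe2l2 was 15.5 times (13.96 to 17.3) Nfe2 in library 1 and 2.43 times (2.36 to 2.51) in library 2. The neutrophil and choroid plexus lists given above were higher in the same library as Nfe2. A list of erythroid genes was also higher in library 2 in sum (0.385 and 15.3 CPM), though none had at least 10 counts in both libraries. The part of any of these cell types in the level of Nfe2 was not tested.

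Of the 9 genes of NRF2 turnover, 4 were more than 2-fold lower in library 2 and none more than 2-fold higher, where 25.9% of all counted genes were lower and 5.74% higher. Sqstm1, which encodes p62, a protein that draws KEAP1 into autophagy, had the highest level per exon length of the 9 (327 and 318, TPM scale), followed by the ligase subunit gene Rbx1 (103 and 110.3). More than 2-fold lower in library 2 were Gsk3a (9.79 and 0.486 CPM, from 229 and 20 counts), Gsk3b (101 and 42.2 CPM), which encode the glycogen synthase kinases that mark NRF2 for decay, and the ubiquitin ligase genes Syvn1 (75.5 and 18.6 CPM) and Fbxw11 (153 and 51.4 CPM). After adjustment for GC content and length only Gsk3a (−3.75) and Fbxw11 (−1.11) were still more than 2-fold lower, and 1 other gene of the list was more than 2-fold higher, Dpp3 (1.31), named after its value was seen.

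Glutathione users were led by Gpx1, the cytosolic glutathione peroxidase (722 and 1074 CPM), and Slc3a2. Of 15 genes, Mgst1, a microsomal glutathione transferase (21.7 and 178 CPM, log2 ratio 3.03), and Glrx, a glutaredoxin (30.6 and 148 CPM, 2.27), were higher in library 2, and Abcc1, an exporter of glutathione conjugates (54.2 and 7.49 CPM, −2.86), was lower. By CPM the other 12 were within 2-fold, while 5.74% of all counted genes were more than 2-fold higher and 25.9% more than 2-fold lower. With TMM 4 of the 15 were higher and 1 lower, as Gsr (1.23) and Gsta4 (1.17) also passed 2-fold. Among all 13445 counted genes 1193 were higher and 2606 lower with TMM. Gsr and Gsta4 are named to complete this count, after their values were seen. In the thioredoxin and peroxiredoxin list Txnip (414 and 568 CPM), which encodes a thioredoxin inhibitor, and Prdx5 (150 and 502 CPM) were highest per exon length. Prdx5 (log2 ratio 1.75) and Prdx6 (56.6 and 188 CPM, 1.73), which encode further peroxiredoxins, and Txn1 were higher in library 2. Sesn2, a sestrin gene (64.5 and 20.1 CPM, −1.68), was lower. After adjustment for GC content and length Sesn2 was at −0.53, no longer past 2-fold. Prdx1 was within 2-fold in the same libraries, and so were Prdx2 (log2 ratio 0.15), Prdx3 (0.35) and Prdx4 (0.42). Prdx2, Prdx3 and Prdx4 are named after their values were seen. Mgst1, Glrx, Prdx5, Prdx6 and Txn1 were higher in library 2. The neutrophil, choroid plexus and erythroid lists were also higher there in sum, and the part of those cells was not tested.

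Of the 5 counted genes of NADPH supply, 1 was more than 2-fold higher in library 2 by CPM and none lower. With TMM 3 were higher, and after adjustment for GC content and length 1. Among all counted genes 5.74% were more than 2-fold higher by CPM, 1193 of 13445 with TMM and 9.7% after the adjustment. The median log2 ratio of the NADPH genes, 0.79 by CPM, was the farthest from 0 of the 7 lists. G6pdx, which encodes the first enzyme of the pentose phosphate route, was higher in library 2 (137 and 310.3 CPM, log2 ratio 1.18), and Taldo1, a later enzyme of the route, was the most abundant of its list (306 and 602 CPM, log2 ratio 0.98). Taldo1 (1.23) and Idh1 (1.05), an isocitrate dehydrogenase gene named to complete this count after its value was seen, passed 2-fold with TMM beside G6pdx (1.43). All 7 haem and iron genes stayed within 2-fold, with log2 ratios from −0.34 to 0.35. Their most abundant genes were the ferritin genes Fth1 (2506 and 2747 CPM) and Ftl1 (661 and 840.0 CPM), which store the iron that haem breakdown frees and are themselves NRF2 targets. All 7 superoxide, peroxide and quinone genes were also within 2-fold, led per exon length by Cat, the catalase gene (127 and 137 CPM), and Cbr1, a carbonyl reductase gene (39.7 and 66.1 CPM).

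**Figure D4:**
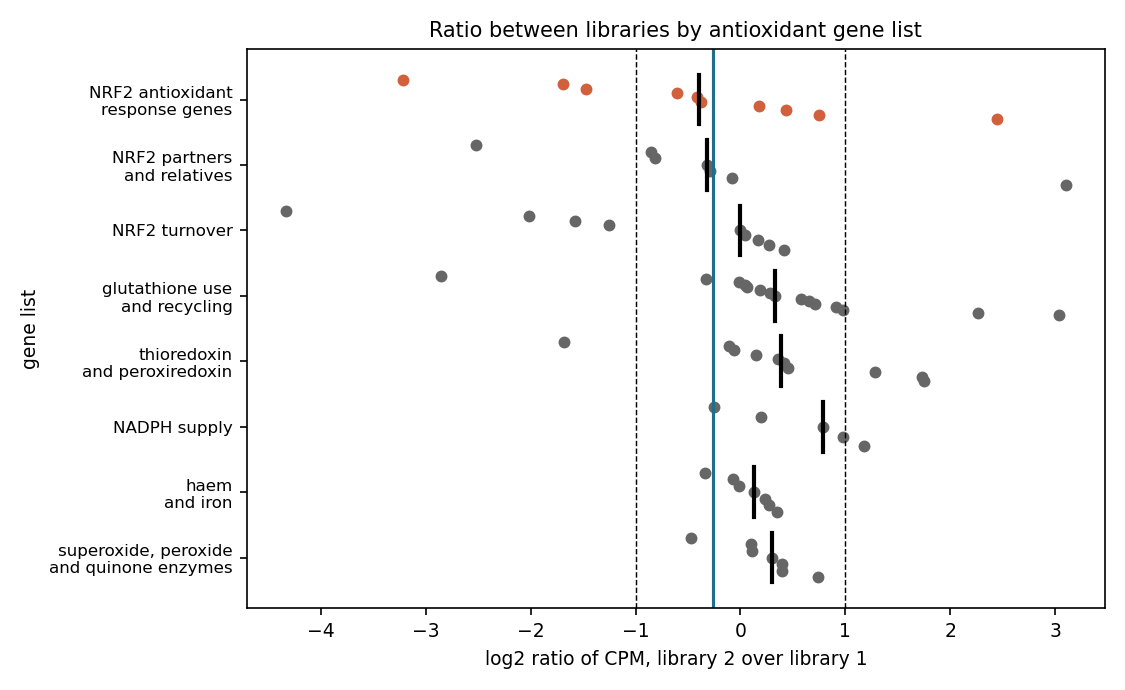
Log2 ratio of CPM, library 2 over library 1, for the 10 NRF2 genes (orange) and the 60 counted genes of 7 pathway lists (grey, 1 point a gene), with the list median as a black bar. Dashed lines mark 2-fold and the blue line the median of all counted genes (−0.26). Points outside the dashed lines occur in 5 of the 7 pathway lists, and the haem and iron list and the superoxide, peroxide and quinone list lie inside them.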

How the data were processed

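RNA-seq counts were read for 2 sham microglia libraries of 1 group. The deposited values are raw counts by Ensembl identifier, which the authors made with HTSeq after aligning paired-end reads to GRCm38 by HISAT2. Versions, annotation release and strand setting are not given in the sources used here. cDNA was made with the SMART-Seq HT Kit and tagmented with Nextera XT. Symbols were matched for 53620 of 53801 identifiers, and starts were converted to count from 1. CPM used each library's total. Exon lengths, GC content and transcripts came from GENCODE M21, whose coordinates matched those of the files for all 10 genes. GC content and length were adjusted for in 10 bins each, or GC content alone under 20 genes. Near-identical copies were sought with blastn (at least 95% identity over 200 bases). TMM used edgeR 4.0.16, with DESeq2 1.42.0 size factors as an alternative, in R 4.3.3. Other steps used Python 3.11.15, numpy 2.4.6, scipy 1.17.1, pandas 2.3.3 and matplotlib 3.10.9, and were tested on simulated data. Members and lists were chosen with earlier results of these data known. Named were all members, the counted NRF2 relatives, the 2 most abundant genes of each list and its 3 largest differences past 2-fold. Ratios between genes within a library were chosen after the values were seen. No gene was named for a like pattern, since 2 libraries give none.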

Additional observations from a re-analysis of the deposited data

How the results depend on the processing

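No paired analysis was possible because both libraries belong to 1 group. The summed level of the 10 NRF2 genes, 943 ± 15.0 CPM (SD, n = 2), was 979 CPM when the neutrophil genes were left out of the totals, which makes the totals smaller, and 932 to 954 CPM with a library left out. The number of genes past 2-fold, 4257, was 6837 at 1.5-fold, 2115 at 3-fold and 7302 with a filter of 1 count in both libraries. The number of pathway genes past the threshold, 14, was 23 at 1.5-fold. Members past 2-fold numbered 4, and 5 with TMM, DESeq2 size factors or the GC and length adjustment. All counted genes past 2-fold numbered 3799, 3803 and 3008 in these settings. Their median log2 ratio ran from −0.42 to −0.12. Of 9 neighbouring pairs in the order per exon length, 7 to 8 kept their order with a library left out and 7 with the longest transcript. With 50 counts in both libraries 9 of the 10 genes remained, without Nqo1. Depth limits Nqo1 most, with 12 counts in library 1, and 2 mice limit every mean.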
